A study of Mus musculus with 8 samples.

Results

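The 10 genes for proteins of bone matrix and of osteocytes were followed in calvarial osteoblast cultures, bone-forming cells taken from the skullcaps of newborn mice. The 10 genes, Bglap, Bglap2, Ibsp, Spp1, Dmp1, Mepe, Phex, Pdpn, Fgf23 and Ifitm5, were chosen by name and not by a measured value, and they are 10 of the 47706 genes listed in the count table. All 10 have 1 row each and passed the filter on low counts, as did 16736 genes in all. Fgf23, with no count in any vehicle-treated culture, passed it through the PTH-treated cultures alone. The cultures were kept in differentiation medium for 7 days and then received either PTH (4 cultures) or its vehicle (4 cultures) for 24 hours, after serum starvation of both groups. The labels carry the word Con in each title and name an adipogenic medium, whereas the series' design text and the study's methods speak of osteoblast differentiation. The strain and genotype of the cells and the sense of Con are not given in the sources used here, and nothing says whether the 4 cultures of a treatment came from separate cell isolations, so p-values measure the spread between these samples, which may be technical. The 10 osteoblast markers summed to between 92455 and 103394 CPM (counts scaled to a common library size) with vehicle and between 86092 and 124563 CPM with PTH, and 10 adipocyte markers summed to between 43.0 and 67.3 CPM in the 8 samples.

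Bone matrix is collagen stiffened by mineral, and a small set of acidic noncollagenous proteins is secreted into it. Osteocalcin, made from the Bglap genes, binds calcium through residues modified with the help of vitamin K. Ibsp, Spp1, Dmp1 and Mepe encode bone sialoprotein, osteopontin, dentin matrix protein and matrix extracellular phosphoglycoprotein, which belong to the SIBLING family of phosphorylated, integrin-binding proteins and lie together in the genome. As osteoblasts are buried and turn into osteocytes they extend dendrites, a step in which the membrane glycoprotein podoplanin (Pdpn) takes part, and they come to express Dmp1, Mepe, the endopeptidase gene Phex and the phosphate-lowering hormone gene Fgf23. Loss of Phex or Dmp1 raises FGF23 and causes hypophosphatemic rickets. Ifitm5 encodes BRIL, a membrane protein found largely in osteoblasts.

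PTH raised Pdpn and Fgf23 and lowered Dmp1, and the other 7 genes did not pass the test. Pdpn was 3.58-fold higher with PTH, Fgf23 went from no count in any vehicle-treated culture to between 34 and 86 counts in each PTH-treated culture, and Dmp1 fell to 0.459 of its vehicle level. The threshold was an adjusted p under 0.05, from the quasi-likelihood F-test of edgeR after Benjamini-Hochberg correction across every gene that passed the filter. The count of 3 genes called of 10 stands beside 45.8% of all tested genes, that of 2 genes upregulated beside 23.3%, and that of 1 gene downregulated beside 22.5%. The counts of so few genes were not tested against these shares and are no result about the 10 genes as a group. In 3 of the 10 genes the 2 treatments did not overlap, 2 of them higher and 1 lower with PTH, against 43.0% of all tested genes (21.2% higher and 21.8% lower). The median log2 fold change of the 10 genes was -0.15, also with Fgf23 at the lower bound given below, and that of all tested genes was 0.00. An abundance per culture cannot tell fewer cells of a type from less RNA per cell.

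**Figure D1:**
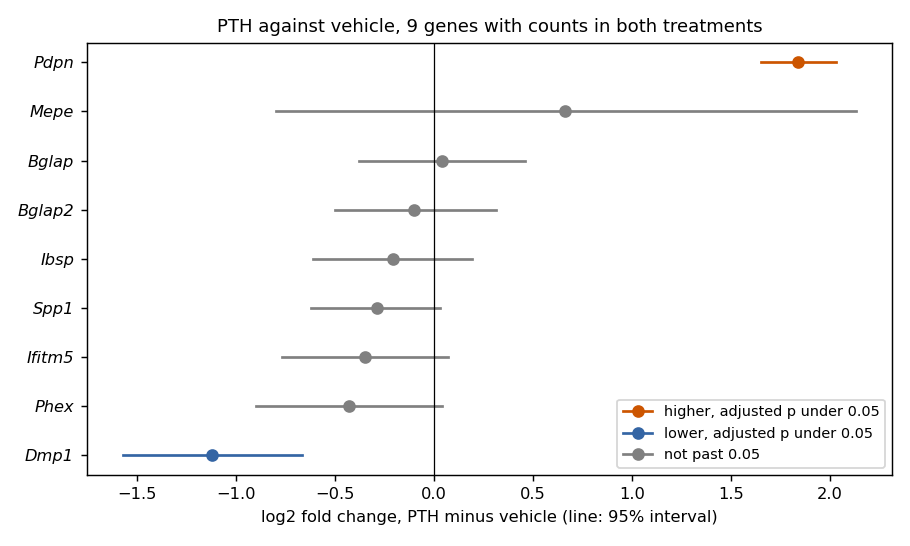
Log2 fold change of PTH over vehicle (horizontal axis) for the 9 genes with counts in both treatments, with points for the edgeR estimate and lines for the 95% interval. Pdpn lies above 0 at 1.84 and Dmp1 below 0 at -1.12, and the intervals of the other 7 genes include 0; Fgf23 is left out because every vehicle-treated culture had 0 counts.

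Total counts per culture lay between 33605610 and 56090654, and the 10 genes took between 0.223% and 0.407% of them. A pair of cultures stood at the edge of their group for most of the 10 genes. Vehicle replicate 4 was the highest of the vehicle-treated cultures for 7 of them, where this held for 25.4% of all tested genes, and PTH replicate 2, the smallest library, was the lowest of the PTH-treated cultures for all 10, where this held for 29.7%. For those 7 genes the value with vehicle replicate 4 left out is therefore given beside the result below. Leaving out PTH replicate 2 instead gave log2 fold changes of 0.15 (Bglap), 0.01 (Bglap2), -0.11 (Ibsp), -0.22 (Spp1), -1.03 (Dmp1), -0.28 (Phex) and -0.25 (Ifitm5). It gave 0.98 for Mepe and 1.92 for Pdpn, and 3 of the 10 genes were called in that fit. Tnfsf11, the RANKL gene and a well-known PTH target, rose in every treated culture (log2 fold change 6.48, adjusted p = 4.28e-11 in edgeR).

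**Figure D2:**
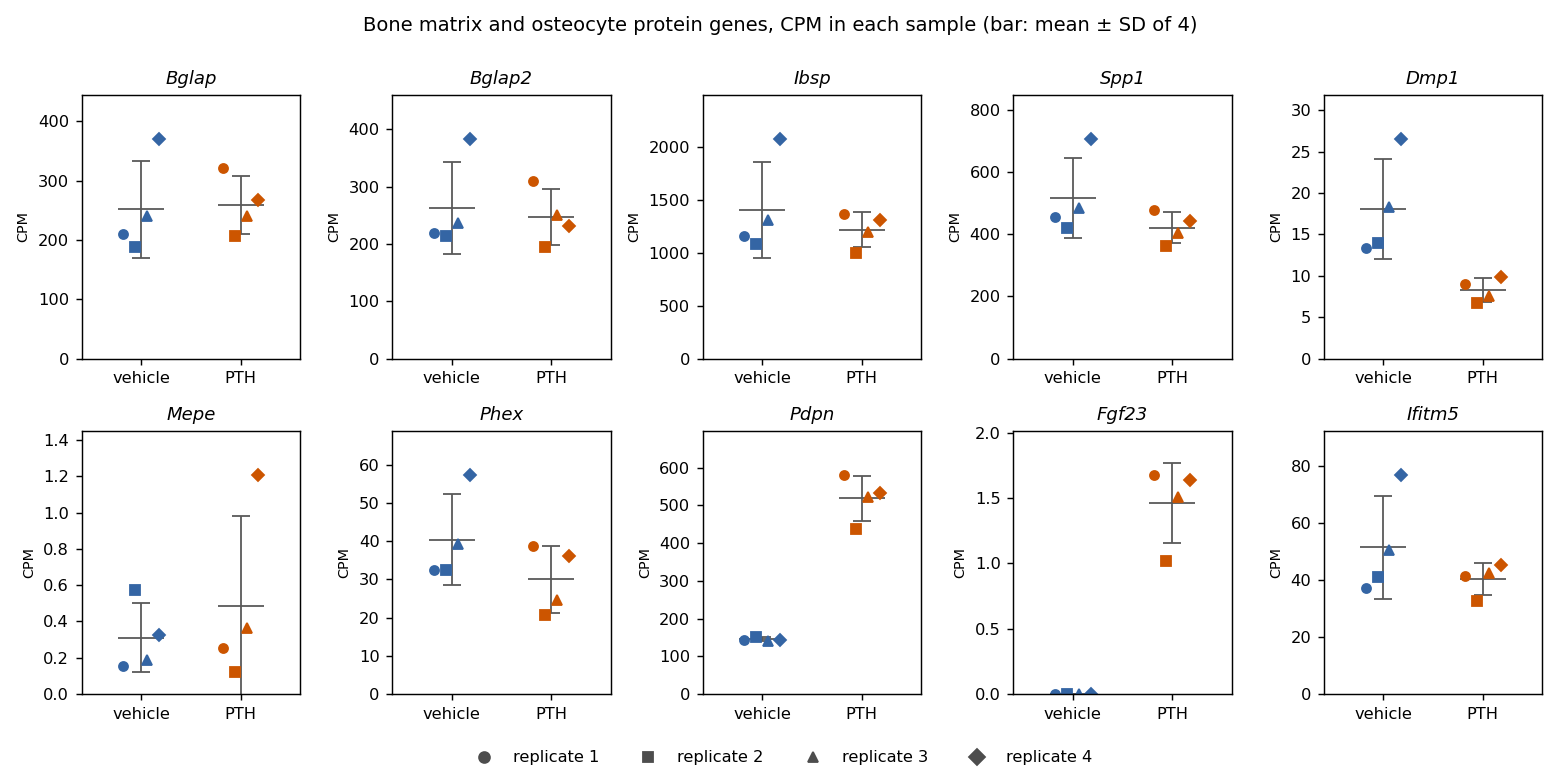
CPM of each gene (vertical axes, starting at 0) in the 4 vehicle-treated (blue) and 4 PTH-treated (orange) cultures, with 1 marker shape per replicate number and bars for the mean ± SD. Vehicle replicate 4 (diamond) is the highest vehicle sample for Bglap, Bglap2, Ibsp, Spp1, Dmp1, Phex and Ifitm5, and Pdpn and Fgf23 separate fully in the upward direction.

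Osteocalcin is encoded in the mouse by the neighboring genes Bglap and Bglap2, with a further copy, Bglap3, known mainly from other tissues. In GENCODE M21 on GRCm38 all 3 lie on the minus strand of chromosome 3, Bglap3 from 88368616 to 88372743, Bglap2 from 88377736 to 88378699 and Bglap from 88383501 to 88384464. The authors' assembly gave each a locus of its own (MSTRG.11228, MSTRG.11229 and MSTRG.11230), and no other symbol shares these loci. Their coding sequences are printed because they show how little sequence tells the copies apart. They are given 5′ to 3′ from the start codon, without the stop codon, as annotated in GENCODE, and capitals mark positions at which the 3 copies are not all the same.
Bglap: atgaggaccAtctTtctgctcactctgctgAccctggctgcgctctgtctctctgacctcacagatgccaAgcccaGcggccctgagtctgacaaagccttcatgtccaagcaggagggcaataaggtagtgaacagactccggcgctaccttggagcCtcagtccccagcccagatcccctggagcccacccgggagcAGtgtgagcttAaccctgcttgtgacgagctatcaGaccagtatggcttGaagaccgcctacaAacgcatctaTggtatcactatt
Bglap2: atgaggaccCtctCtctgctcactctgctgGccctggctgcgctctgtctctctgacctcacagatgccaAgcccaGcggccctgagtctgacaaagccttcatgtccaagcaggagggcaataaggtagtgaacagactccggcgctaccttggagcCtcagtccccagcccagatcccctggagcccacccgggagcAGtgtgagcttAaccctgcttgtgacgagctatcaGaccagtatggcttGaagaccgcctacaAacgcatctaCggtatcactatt
Bglap3: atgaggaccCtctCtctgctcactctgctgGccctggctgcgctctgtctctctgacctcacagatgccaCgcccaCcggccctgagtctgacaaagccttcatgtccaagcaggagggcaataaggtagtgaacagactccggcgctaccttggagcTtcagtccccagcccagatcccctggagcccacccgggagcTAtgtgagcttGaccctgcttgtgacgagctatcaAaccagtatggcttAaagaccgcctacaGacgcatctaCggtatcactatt
Over 285 bases, Bglap and Bglap2 differ at 4, which are A10C, T14C, A31G and T273C with the base of Bglap first, its position counted from the A of the start codon, and the base of Bglap2 last. The longest stretch without a difference between them is 241 bases. Bglap3 differs from Bglap at 13 positions and from Bglap2 at 9. Reads from within the shared stretches cannot be assigned to 1 copy by sequence, so the split between Bglap and Bglap2 is uncertain and their sum is the firmer value.

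Bglap had 209.6, 188.0, 239.7 and 370.1 CPM in vehicle replicates 1 to 4 and 322, 207, 241 and 268 CPM in PTH replicates 1 to 4. The treatments overlapped, with a log2 fold change of 0.04 (95% interval -0.38 to 0.46, adjusted p = 0.874 in edgeR), and of 0.29 without vehicle replicate 4 (adjusted p = 0.137). Bglap2 had 219, 214, 236 and 383 CPM with vehicle and 310.5, 194, 251 and 231 CPM with PTH. Again the highest of all 8 values was that of vehicle replicate 4, and the log2 fold change was -0.10 (95% interval -0.50 to 0.31, adjusted p = 0.709 in edgeR), or 0.14 without that culture (adjusted p = 0.448). Bglap took between 46.7% and 53.7% of the counts of the 3 copies in each culture, and Bglap3 at most 0.447%. Summed into 1 row, the 3 copies had 516 ± 163 CPM (SD, n = 4) with vehicle and 507 ± 95.5 CPM (SD, n = 4) with PTH, a log2 fold change of -0.03 (95% interval -0.44 to 0.39, adjusted p = 0.920 in edgeR). Without vehicle replicate 4, the log2 fold change of the sum was 0.22 (adjusted p = 0.25 in edgeR).

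The SIBLING genes lie on the plus strand of chromosome 5, where Dmp1 runs from 104202613 to 104214102, Ibsp from 104299171 to 104311469, Mepe from 104325329 to 104338611 and Spp1 from 104435118 to 104441050. From the start of Dmp1 to the end of Spp1 is 238.4 kb. Dmp1 fell, and the tests of Ibsp, Mepe and Spp1 did not pass. The response of Dmp1 was set against that of Ibsp alone, with the ratios below, and its difference from those of Spp1 and Mepe was not tested. Dspp, the dentin sialophosphoprotein gene upstream of Dmp1, had 2 counts in the 8 libraries together and was not tested.

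**Figure D3:**
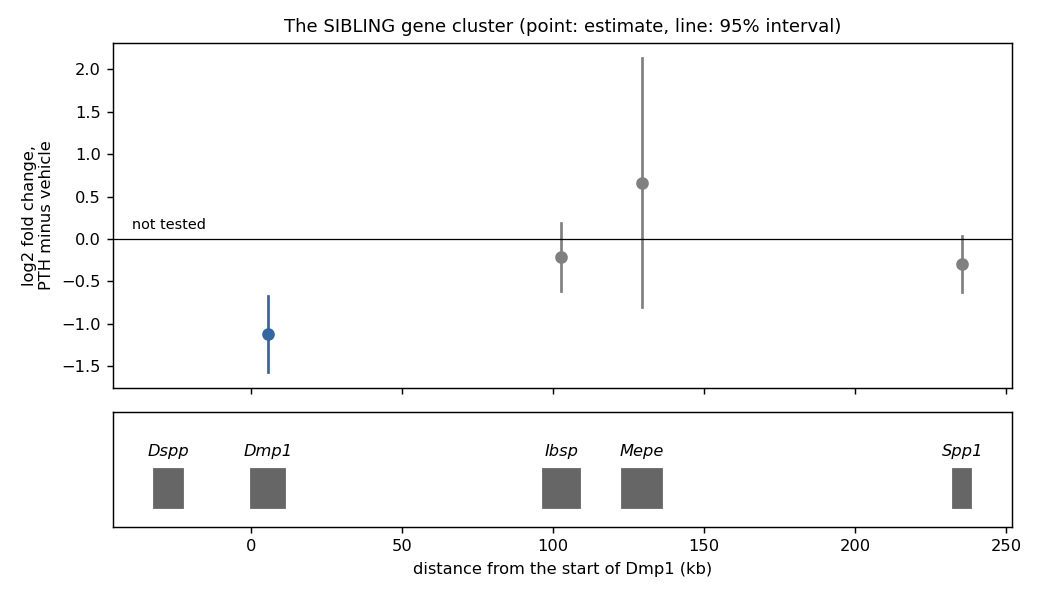
Upper panel, log2 fold change of PTH over vehicle (point) with its 95% interval (line) for the SIBLING genes, and lower panel, their positions as distance in kb from the start of Dmp1. Dmp1 is the only one of the 4 tested genes whose interval lies below 0, Mepe has the widest interval (-0.80 to 2.13), and Dspp was not tested.

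Ibsp, which encodes the mineral-nucleating bone sialoprotein, was the most abundant of the 10 genes, with 1162, 1086, 1308 and 2073 CPM in vehicle replicates 1 to 4 and 1369, 999, 1196 and 1312 CPM in PTH replicates 1 to 4. All PTH values but that of replicate 2 fell within the range of the vehicle values. The log2 fold change was -0.21 (95% interval -0.61 to 0.19, adjusted p = 0.382 in edgeR), and 0.04 without vehicle replicate 4 (adjusted p = 0.830 in edgeR).

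Spp1, the gene of osteopontin, which anchors cells to mineral and restrains crystal growth, had 456, 419, 483 and 705 CPM with vehicle and 476, 360.1, 405 and 442 CPM with PTH. The treatments overlapped, and the log2 fold change of -0.29 did not pass the test (95% interval -0.62 to 0.03, adjusted p = 0.129 in edgeR). Without vehicle replicate 4, the highest culture, it was -0.11 (adjusted p = 0.467 in edgeR). Macrophages and osteoclasts are also known to express osteopontin. The 10 macrophage markers summed to between 1088 and 1768 CPM with vehicle and between 1694 and 2181 CPM with PTH. Of these, 2 of the 10, Lyz2 and Tyrobp, were upregulated, beside 23.3% of all tested genes. Of 10 osteoclast markers, 7 were tested and none passed, beside 45.8% of all tested genes. The 10 summed to between 459.8 and 569 CPM with vehicle and between 450.3 and 639 CPM with PTH. Ctsk made up most of that sum (means 449 CPM with vehicle and 464 CPM with PTH), while Dcstamp and Siglec15 had 0 counts in all 8 libraries. The share of Spp1 counts that came from such cells was not tested. The assembled locus of Spp1 (MSTRG.14091) also holds Gm42793, an unclassified transcript from 104435121 to 104436372 on the same strand, which had at most 50 counts in any culture against at least 11969 for Spp1.

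Dmp1, whose product carries phosphate-rich mineral nucleation sites and whose transcript marks early osteocytes, had 13.4, 14.0, 18.3 and 26.5 CPM in vehicle replicates 1 to 4 and 9.01, 6.71, 7.54 and 9.82 CPM in PTH replicates 1 to 4. Every PTH-treated culture was below every vehicle-treated culture (exact permutation test, two-sided p = 0.0286, the smallest that 4 against 4 samples allow). The mean fell from 18.1 ± 6.05 CPM to 8.27 ± 1.40 CPM (SD, n = 4 each), a log2 fold change of -1.12 (standard error 0.206, 95% interval -1.57 to -0.67, adjusted p = 8.06e-04 in edgeR). Left without vehicle replicate 4, the highest culture, the log2 fold change was -0.88 (adjusted p = 0.00110 in edgeR). With any 1 sample left out it lay between -1.25 and -0.88, and Dmp1 stayed past the threshold each time.

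Mepe, a gene of mature osteocytes whose product carries a mineral-binding peptide, was close to the limit of detection, with between 7 and 25 counts per vehicle-treated culture and between 4 and 51 per PTH-treated culture. Its level was 0.156, 0.574, 0.188 and 0.323 CPM with vehicle and 0.254, 0.12, 0.365 and 1.21 CPM with PTH. The log2 fold change of 0.66 had a 95% interval from -0.80 to 2.13 (adjusted p = 0.450 in edgeR), so neither a rise nor a fall of Mepe could be told from 0. The 51 counts of PTH replicate 4 stood against at most 14 in the other PTH-treated cultures. With PTH replicate 4 left out the estimate turned to -0.31.

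Phex, on the minus strand of the X chromosome from 157162075 to 157415312, had 32.6, 32.4, 39.4 and 57.5 CPM in vehicle replicates 1 to 4 and 38.7, 20.8, 24.5 and 36.1 CPM in PTH replicates 1 to 4. PTH replicates 2 and 3 were below all vehicle-treated cultures, and replicates 1 and 4 were not. The log2 fold change was -0.43 (95% interval -0.90 to 0.04, adjusted p = 0.128 in edgeR). It passed the threshold without PTH replicate 1 (-0.58, adjusted p = 0.0426 in edgeR) and when sample numbers entered as a replicate block (-0.44, adjusted p = 0.0428 in edgeR), and it was -0.21 without vehicle replicate 4 (adjusted p = 0.423 in edgeR).

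Fgf23, on the plus strand of chromosome 6 from 127072902 to 127081408, encodes the bone-derived hormone that makes the kidney excrete phosphate. It had 0 counts in each of the 4 vehicle-treated cultures and 86, 34, 58 and 69 counts in PTH replicates 1 to 4, or 1.68, 1.02, 1.51 and 1.64 CPM. Every treated culture was above every untreated culture (exact permutation test, two-sided p = 0.0286, the smallest possible), and the adjusted p was 9.15e-06 in edgeR. Since Fgf23 passed the filter on low counts only through the PTH-treated cultures, these p-values add no separate support to the counts. A count of 0 allows up to 3 counts per library, which is between 0.0605 and 0.0689 CPM in these vehicle libraries. Against that floor, the mean of 1.46 ± 0.302 CPM (SD, n = 4) with PTH was at least 22.6-fold higher. That bound covers counting error in the vehicle libraries only and takes the PTH mean as exact. The lowest PTH-treated culture was 14.9-fold above the highest floor. Even so, Fgf23 remained a rare transcript, at 0.807 ± 0.167 CPM per kb (SD, n = 4) of its annotated transcript with PTH, against 285 ± 33.4 CPM per kb for Pdpn.

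Pdpn, on the minus strand of chromosome 4 from 143267431 to 143299564, had 144, 152, 140.3 and 143 CPM in vehicle replicates 1 to 4 and 582, 437, 522 and 534 CPM in PTH replicates 1 to 4. The vehicle values were tightly grouped, also in replicate 4, and the lowest PTH value was well above the highest of them. The mean rose from 145 ± 5.30 to 519 ± 60.6 CPM (SD, n = 4 each), a log2 fold change of 1.84 (standard error 0.0883, 95% interval 1.65 to 2.03, adjusted p = 8.63e-09 in edgeR). With any 1 sample left out the log2 fold change lay between 1.78 and 1.92. Podoplanin also marks lymphatic endothelium and some fibroblasts. The 10 endothelial and lymphatic markers summed to between 5.63 and 6.41 CPM with vehicle and between 8.82 and 9.27 CPM with PTH, with Emcn at 0 counts in all libraries and Prox1, the lymphatic transcription factor, at 0.356 ± 0.0248 and 1.49 ± 0.482 CPM (SD, n = 4 each). Of these markers, 7 were tested and 2 were upregulated, beside 23.3% of all tested genes. The 2 were Prox1 (log2 fold change 2.06, adjusted p = 3.79e-04 in edgeR) and, with overlap between the treatments, Kdr (1.51, adjusted p = 0.0107 in edgeR). The other 5 did not pass, with log2 fold changes of -0.57 (Cdh5), 0.10 (Pecam1), 0.11 (Egfl7), 0.41 (Flt4) and 0.63 (Vwf). The part of such markers in the level of Pdpn was not tested.

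Ifitm5, on the minus strand of chromosome 7 from 140948958 to 140950291, had 37.1, 41.1, 50.5 and 77.0 CPM with vehicle and 41.3, 32.5, 42.3 and 45.3 CPM with PTH. The treatments overlapped, with a log2 fold change of -0.35 (95% interval -0.77 to 0.07, adjusted p = 0.165 in edgeR). Without vehicle replicate 4 it was -0.09 (adjusted p = 0.627 in edgeR). A stretch of 266 bases of its transcript is 95.9% identical to Gm45717, for which no row is used here.

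Because the matrix genes were high or low together within a culture, each was also set against Ibsp in the same culture, a ratio of counts that needs no normalization between libraries. This comparison was chosen after the values had been seen. Vehicle replicate 4 was no longer the highest vehicle-treated culture for Dmp1, which had 1.15, 1.29, 1.40 and 1.28 counts per 100 Ibsp counts in vehicle replicates 1 to 4 and 0.658, 0.672, 0.631 and 0.748 in PTH replicates 1 to 4. The SD of the log2 values among vehicle cultures was 0.115 for that ratio and 0.453 for Dmp1 in CPM. For Pdpn it went the other way, from 0.0521 in CPM to 0.448 in the ratio, in which vehicle replicate 4 was the lowest culture (6.88 counts per 100 Ibsp counts against 10.7 to 14.0). The log2 difference of Dmp1 relative to Ibsp, PTH minus vehicle, was -0.92 with no overlap (exact permutation test, two-sided p = 0.0286, adjusted over 8 ratios p = 0.0762). With any 1 culture left out that difference lay between -0.97 and -0.87. Bglap went the other way, with 18.0, 17.3, 18.3 and 17.8 counts per 100 Ibsp counts with vehicle and 23.5, 20.8, 20.1 and 20.4 with PTH. That difference of 0.24 on the log2 scale was also without overlap (exact permutation test, two-sided p = 0.0286, adjusted p = 0.0762). Bglap2, whose sequence is nearly identical to that of Bglap, differed by 0.10 with overlap (exact permutation test, two-sided p = 0.314, adjusted p = 0.359). Since the split between these copies is uncertain, the value for Bglap alone is uncertain too. Both copies had the higher mean ratio with PTH, 21.2 against 17.9 for Bglap and 20.2 against 18.8 for Bglap2. The ratio of their summed counts to Ibsp is not given here. Pdpn relative to Ibsp differed by 2.0 on the log2 scale without overlap (exact permutation test, two-sided p = 0.0286, adjusted p = 0.0762). The ratios of Spp1, Phex, Ifitm5 and Mepe to Ibsp overlapped between treatments, with differences of -0.10, -0.27, -0.13 and 0.50 and exact permutation p-values from 0.0857 to 0.571. None of the 8 ratios passed after adjustment. A ratio does not show that Ibsp itself was unchanged, and with 8 ratios no adjusted p could pass 0.05 for fewer than 5 of them.

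**Figure D4:**
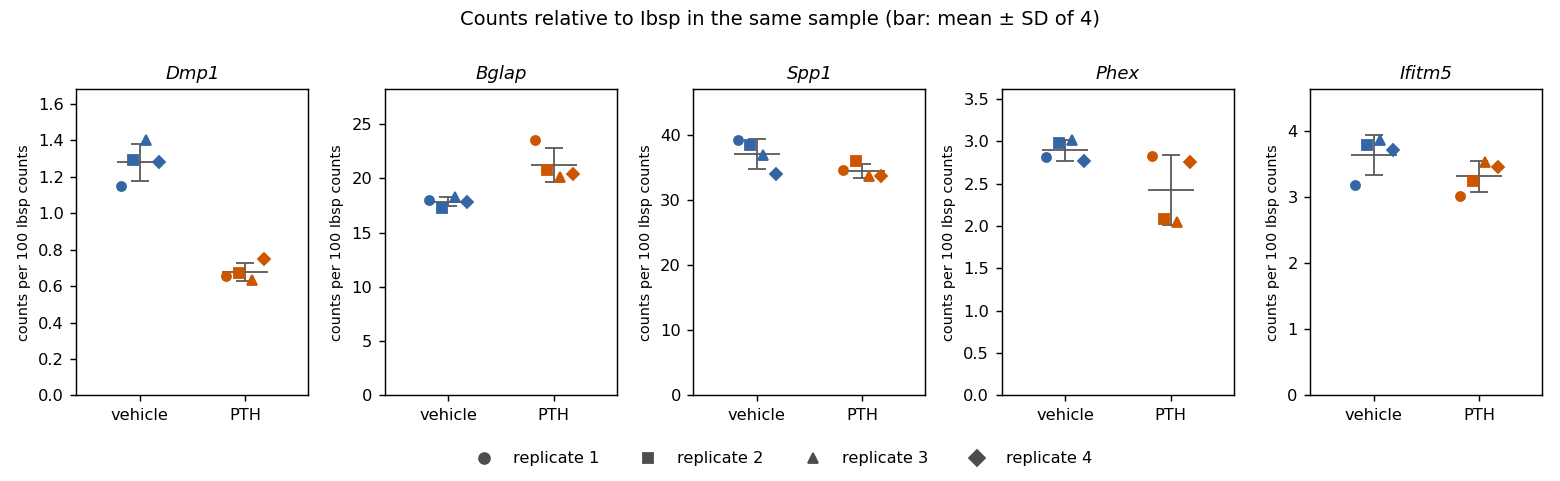
Counts of 5 genes per 100 Ibsp counts of the same culture (vertical axes, starting at 0) in the vehicle-treated (blue) and PTH-treated (orange) cultures, with bars for the mean ± SD of 4. Dmp1 separates downward, from at least 1.15 to at most 0.748, Bglap separates upward by a small step, and Spp1, Phex and Ifitm5 overlap.

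Set against the length of the annotated principal transcript, the order of levels with vehicle was led by Ibsp with 681 ± 219, Bglap with 572 ± 185, Bglap2 with 559 ± 171 and Spp1 with 342 ± 85.6 CPM per kb (SD, n = 4 each). The ranges of each of these overlapped that of the gene before it. Pdpn followed at 79.7 ± 2.92 CPM per kb, below every value of Spp1, and Ifitm5 at 67.2 ± 23.5 CPM per kb overlapped Pdpn. Dmp1 (6.53 ± 2.19) and Phex (6.46 ± 1.89 CPM per kb) did not differ beyond their spread, and both were below every value of Ifitm5. Mepe, at 0.184 ± 0.113 CPM per kb, and Fgf23, with no counts, were last. With PTH, Pdpn (285 ± 33.4 CPM per kb) stood level with Spp1 (279 ± 32.9 CPM per kb), and Phex (4.79 ± 1.39 CPM per kb) came before Dmp1 (2.99 ± 0.508 CPM per kb), with ranges that overlapped.

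The sequences upstream of the called genes are printed, with that of Bglap as a matrix gene that was not called, to show which short factor motifs they hold. RefSeq promoter windows on GRCm38.p6 were found for 9 of the 10 genes (11 windows), and Bglap2 had none. Each line holds the 250 bases before the RefSeq start site, 5′ to 3′ on the strand of the gene. Capitals mark the RUNX motif ACCACA, the core TGACG of the cAMP response element, the vitamin D receptor hexamers AGGTCA and GGTTCA, and the TATA box TATAAA, each searched on both strands.
Dmp1 (chr5:104202367-104202616, plus strand): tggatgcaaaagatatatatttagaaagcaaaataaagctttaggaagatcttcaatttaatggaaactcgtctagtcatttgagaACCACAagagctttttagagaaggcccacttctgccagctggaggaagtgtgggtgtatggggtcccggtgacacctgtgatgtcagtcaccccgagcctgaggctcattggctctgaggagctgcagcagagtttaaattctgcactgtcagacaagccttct
Fgf23 (chr6:127072652-127072901, plus strand): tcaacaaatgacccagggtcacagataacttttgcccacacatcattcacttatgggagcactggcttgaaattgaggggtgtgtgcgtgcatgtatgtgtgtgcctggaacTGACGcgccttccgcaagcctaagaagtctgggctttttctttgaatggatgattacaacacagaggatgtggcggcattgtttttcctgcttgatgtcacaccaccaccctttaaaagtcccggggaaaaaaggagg
Pdpn (chr4:143299565-143299814, minus strand): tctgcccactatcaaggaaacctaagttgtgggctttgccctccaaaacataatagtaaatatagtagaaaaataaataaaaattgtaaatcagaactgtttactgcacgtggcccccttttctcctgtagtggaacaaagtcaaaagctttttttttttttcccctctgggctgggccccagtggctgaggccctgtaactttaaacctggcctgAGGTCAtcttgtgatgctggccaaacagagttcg
Bglap (chr3:88384467-88384716, minus strand): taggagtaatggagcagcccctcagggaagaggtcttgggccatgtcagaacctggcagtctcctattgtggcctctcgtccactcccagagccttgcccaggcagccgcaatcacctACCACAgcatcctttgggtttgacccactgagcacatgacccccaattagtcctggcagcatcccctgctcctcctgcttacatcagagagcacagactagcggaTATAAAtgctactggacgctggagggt
ACCACA was found in 4 of the 11 windows, those of Bglap, Dmp1, Mepe and Spp1, against 14.0% of all 32851 windows of the same length. TGACG was found in 3 windows, those of Fgf23, Ibsp and Phex (17.8% of all windows), and the full element TGACGTCA, which contains it, in none (1.55%). AGGTCA was found upstream of Pdpn (14.0% of all windows) and GGTTCA upstream of Mepe (8.85%). TATAAA was found in the windows of Bglap, Ibsp, Mepe and Spp1 (12.4% of all windows). Of the other motifs searched, CANNTG (E-box) was in all 11 windows (66.2% of all windows), TAATTA (homeodomain) in 2 (4.84%) and TGANTCA (AP-1) in none (6.75%). A match is a run of letters and not a bound site, and the window of the other Dmp1 start site held none of the 5 marked motifs.

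Regulators of bone matrix transcription went both ways. Of 20 listed factors, all tested, 8 were upregulated, 9 were downregulated and 3 did not pass, beside the 23.3% and 22.5% of all tested genes, with a median log2 fold change of -0.22. The largest rise was that of Vdr, the vitamin D receptor, which increased from 24.2 ± 6.42 to 1177 ± 118 CPM (SD, n = 4 each; log2 fold change 5.6, adjusted p = 2.71e-10 in edgeR). Cebpb, the gene of a factor that acts with RUNX2 at osteocalcin, went from a mean of 38.9 CPM up to 391 ± 38.1 CPM (SD, n = 4; log2 fold change 3.33, adjusted p = 2.83e-11 in edgeR). The largest fall was that of Dlx3, a homeobox gene of bone and tooth, from between 18.5 and 40.7 CPM to between 2.05 and 3.04 CPM (log2 fold change -3.37, adjusted p = 3.48e-07 in edgeR). Mef2c, whose product acts in osteocytes, fell by 1.84, and Sp7, the osterix gene needed for osteoblast formation, fell by 1.78 on the log2 scale. Dlx5 had a log2 fold change of -0.92 and Runx2, the master factor of the lineage, one of -0.33 (116 ± 5.70 against 92.3 ± 8.97 CPM, adjusted p = 0.00362 in edgeR). In 17 of the 20 factors the treatments did not overlap, beside 43.0% of all tested genes. The list was chosen with earlier results of these data known, so its counts are no independent result about such factors.

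**Figure D5:**
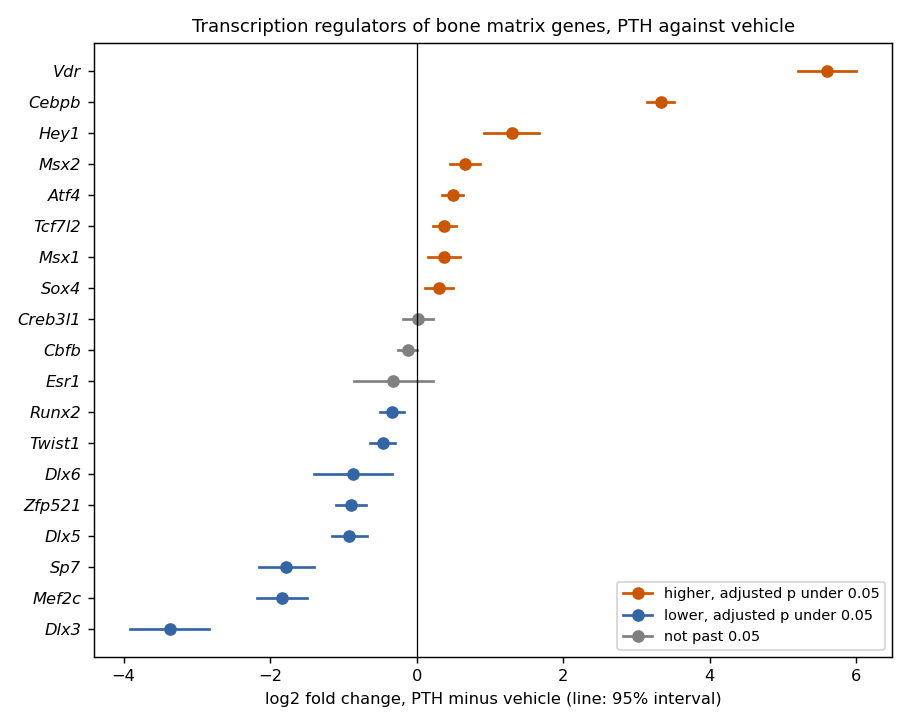
Log2 fold change of PTH over vehicle (horizontal axis, with 95% intervals) for transcription regulators of bone matrix genes, ordered by size, with 1 of the 20 not shown. Vdr at 5.6 and Cebpb at 3.33 are at the top, Dlx3 at -3.37 is at the bottom, and Creb3l1, Cbfb and Esr1 did not pass the test.

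Most genes whose products modify or cleave the matrix proteins did not pass. Of 14 listed, 13 were tested, 2 were upregulated, 1 was downregulated and 10 did not pass, with a median log2 fold change of 0.09. These counts stand beside 23.3% upregulated and 22.5% downregulated among all tested genes. Fam20c, the kinase gene for SIBLING proteins and FGF23, was at 35.0 ± 2.02 CPM in vehicle and 32.1 ± 3.31 CPM in PTH cultures (log2 fold change -0.13, adjusted p = 0.249 in edgeR). Ggcx, which encodes the vitamin K-dependent carboxylase of osteocalcin, had a log2 fold change of 0.09 (adjusted p = 0.296 in edgeR). Galnt3, whose enzyme glycosylates FGF23 and so protects it from cleavage, fell by 0.80 on the log2 scale (means 17.2 ± 5.45 and 9.90 ± 1.48 CPM, adjusted p = 0.00625 in edgeR), with overlap between the treatments. Furin, the gene of a protease that can cleave FGF23, had a log2 fold change of 0.08 (adjusted p = 0.478 in edgeR). Bmp1, whose protease cuts DMP1 into its active parts, had the larger of the 2 rises (log2 fold change 0.33, adjusted p = 0.00264 in edgeR), and the other was that of Pcsk5 (0.25).

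Among 18 listed receptors and partners of the proteins, 12 were tested, 2 were upregulated, 2 were downregulated and 8 did not pass, with a median log2 fold change of -0.17. The shares over all tested genes were 23.3% upregulated and 22.5% downregulated. The osteopontin and sialoprotein receptor genes Itgav (log2 fold change -0.19, adjusted p = 0.0745 in edgeR), Itgb3 (-0.11, adjusted p = 0.413) and Cd44 (-0.15, adjusted p = 0.172) did not pass. Itga5, a further integrin gene of the list, was lower without overlap (log2 fold change -0.21, adjusted p = 0.0185 in edgeR). Itga9, an integrin gene whose product binds cleaved osteopontin, was at 33.6 ± 2.43 CPM in vehicle and 65.0 ± 13.2 CPM in PTH cultures and rose (log2 fold change 0.95, adjusted p = 4.75e-05 in edgeR). Fgfr1, which encodes a receptor for FGF23, rose as well, with means of 330.1 ± 14.7 and 520.5 ± 63.5 CPM (log2 fold change 0.66, adjusted p = 7.97e-05 in edgeR), and Fgfr4 was lower at 2.23 ± 0.443 against 3.99 ± 0.756 CPM (log2 fold change -0.84, adjusted p = 0.00554 in edgeR). Kl, the coreceptor gene Klotho, was too low to be tested, with mean levels of 0.0223 CPM with vehicle and 0.0579 CPM with PTH.

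Osteocyte markers beyond the 10 genes went both ways. Of 15 listed, 13 were tested, 5 were upregulated, 3 were downregulated and 5 did not pass, with a median log2 fold change of -0.06. Among all tested genes 23.3% were upregulated and 22.5% downregulated. Ackr3, a chemokine-scavenging receptor gene, had the largest rise (means 18.6 ± 0.430 and 99.2 ± 10.7 CPM, log2 fold change 2.42, adjusted p = 4.34e-10 in edgeR) and the Wnt antagonist gene Dkk1 the largest fall, which has a log2 fold change of -5.57 (adjusted p = 1.97e-06 in edgeR). Gja1, the gene of the connexin that joins osteocyte dendrites, rose by 1.14 on the log2 scale (adjusted p = 1.80e-05 in edgeR). Sost, the sclerostin gene that defines mature osteocytes, had 0 counts in all 8 libraries.

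Of 12 further bone matrix genes, 8 were tested, 2 were upregulated, 2 were downregulated and 4 did not pass, with a median log2 fold change of -0.10. Mgp, which encodes the mineralization inhibitor matrix Gla protein, a relative of osteocalcin, rose, with means of 336 ± 39.3 and 885 ± 12.3 CPM (log2 fold change 1.40, adjusted p = 8.84e-08 in edgeR). Smpd3, the gene of a sphingomyelinase needed for bone mineralization, fell, with means of 212 ± 75.0 and 53.3 ± 12.6 CPM (log2 fold change -1.99, adjusted p = 2.12e-05 in edgeR). Sparc, the gene of osteonectin and one of the most abundant transcripts, was at 16750.3 ± 633 CPM in vehicle and 16552 ± 2465 CPM in PTH cultures (log2 fold change -0.02, adjusted p = 0.919 in edgeR). Over the 5 lists together, 65 genes were tested, 19 were upregulated and 17 were downregulated, beside the 23.3% and 22.5% of all tested genes.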

How the data were processed

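Poly(A) RNA of 8 samples of calvarial osteoblasts was sequenced, 4 per treatment. The authors aligned poly(A)-enriched, paired reads to GRCm38 (mm10) with HISAT2, built transcript models in StringTie2 and deposited raw counts per gene, derived from transcript coverage by a companion script. The annotation, the strand setting and the read length given to that script are not given in the sources used here. Groups came from sample titles, and the row with the highest mean count stood for a symbol. All genes passing filterByExpr (minimum count 10, minimum total 15) were fitted in edgeR 4.0.16 (TMM, quasi-likelihood F-test, R 4.3.3). Fold changes are PTH over vehicle, and their 95% intervals use the standard error taken from the F statistic. CPM uses TMM-scaled libraries. Exact permutation tests over 70 assignments used log2(CPM + 0.1), or log2 ratios. DESeq2 1.42.0, the authors' tool, was one alternative. The fits were tested on simulated counts. Positions and transcript lengths are from GENCODE M21, and similar transcripts (at least 150 bases, 95% identity) were found with blastn 2.17.0. Python 3.11.15, SciPy 1.17.1 and matplotlib 3.10.9 were used.

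The genes, lists and tests were chosen with earlier results of these data known. The text names all 10 genes, symbols at their loci, the called gene with the largest rise and fall of each list, genes with a direct role for a member, and the most alike genes of Ibsp, Dmp1 and Phex. Outside that rule, Tnfsf11, the cell type markers named, Cebpb, Mef2c, Creb3l1, Cbfb, Esr1, Pcsk5, Itga5 and Gja1 were chosen after their values were seen. The values of 1 listed regulator are not reported here. The deviations of same-numbered cultures from their group means had correlations across genes between -0.041 and 0.027, so the numbers were not taken to pair the cultures. The 2 most similar libraries differed in the counts of 21682 genes and were kept apart.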

Additional observations from a re-analysis of the deposited data

Results flagged for a closer look

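Vehicle replicate 4 lay apart from the other 3 vehicle-treated cultures in 2 of the 21 groups of 4 examined, where chance gives about 5%. For Bglap2 it had 383 CPM where the others had between 214 and 236 CPM. For Bglap3 it had 3.39 CPM where the others had between 0.207 and 0.357 CPM. The copies share sequence, so the pair of values is not independent, and the cause was not tested.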

How the results depend on the processing

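Of 159 recomputed values of the 10 genes, 150 kept their direction and their side of the threshold, and Pdpn, Fgf23 and Dmp1 passed it under all 16 alternatives each. For Fgf23 this adds no separate support, since every vehicle count was 0 and it passed the filter through the PTH-treated cultures alone. The number of the 10 genes called lay between 3 and 4. Phex passed with the sample number as a replicate block (log2 fold change -0.44, adjusted p = 0.0428 in edgeR) and without PTH replicate 1 (-0.58), and over its leave-one-out fits lay between -0.58 and -0.21. The block turned the osteocalcin sum from -0.03 to 0.00 and moved no other call among the 10 genes. Some values changed sign when 1 sample was left out. Bglap lay between -0.08 and 0.29 (-0.08 without PTH replicate 1, -0.04 without vehicle replicate 1, -0.08 without vehicle replicate 2). Bglap2 lay between -0.23 and 0.14 (0.01 without PTH replicate 2, 0.14 without vehicle replicate 4), and Ibsp between -0.32 and 0.04 (without vehicle replicate 4). The osteocalcin sum lay between -0.16 and 0.22 (0.08 without PTH replicate 2, 0.22 without vehicle replicate 4). Mepe, at 0.66 with all samples, lay between -0.31 (without PTH replicate 4) and 1.12. A minimum log2 fold change of 1 left 1882 of 7669 called genes and 12 of the 36 called genes in the lists. No tested value of Mepe was had with counts halved, since it then failed the filter. Mepe and Fgf23 had the fewest counts of the 10 genes, at most 51 and 86 in a library.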

Other observations

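Over 14071 other genes, each averaging 1 CPM or more, those whose log2 CPM followed a gene most closely over the 8 cultures were Cgref1 (Pearson r = 0.970) and Eno1 (0.969) for Ibsp, Panx3 (0.995) and Vldlr (0.994) for Dmp1, and Lepr (0.989) and Aldh1l2 (0.977) for Phex. These are descriptions over 8 points that share treatment and library, and no test was made.

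Of 10 listed chondrocyte markers, 8 were tested and 2, Col2a1 (log2 fold change 0.44) and Acan (1.03), were upregulated, with summed levels between 470.4 and 538 CPM with vehicle and between 548 and 685 CPM with PTH. Of the 10 adipocyte markers, 9 were tested and 1, Pparg, passed, with a log2 fold change of -1.5. Of the 10 osteoblast markers, 5 were downregulated and 5 did not pass, among the latter Alpl (log2 fold change 0.28, adjusted p = 0.160 in edgeR). Each of these marker counts stands beside 23.3% upregulated and 22.5% downregulated among all tested genes.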
